A study of Caenorhabditis elegans with 33 samples.

Results

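The moulting and hedgehog-related genes of *Caenorhabditis elegans* were taken as every gene identifier in the count files whose symbol was *wrt*, *grd*, *grl*, *ptr* or *mlt* followed by a number, together with *hog-1*, *qua-1*, *noah-1* and *noah-2*. The rule gave 93 genes of 46778 identifiers, all protein coding: 31 *grl*, 24 *ptr*, 16 *grd*, 10 *wrt* and 8 *mlt* genes, *hog-1* with *qua-1*, and both *noah* genes. Of the 93 genes, 82 had enough counts to be tested, beside 17627 genes in all. The rule uses gene names only.

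Transcripts of whole wild-type N2 animals were counted by RNA-seq in 33 libraries, 3 for each of 11 groups. Exposed animals grew under chronic gamma rays, 50 mGy each hour over 65 h from the synchronised embryo on, in all of the generations F0, F1, F2 and F3. Recovery animals of F1, F2 and F3 were unirradiated descendants of animals irradiated in F0. Control animals of F0 to F3 were never irradiated, and all groups were kept at 19 °C on *E. coli* OP50. The labels name the sampled stage both L4 and young adult, and do not place the animals in time against the last moult. They call the 3 libraries of a group biological replicates without saying whether these came from separate irradiations, and p-values measure only the spread between these libraries.

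The nematode sheds its cuticle at the end of each larval stage, and the epidermis makes the next cuticle in a wave of transcription that rises and falls with each moult. *C. elegans* has no Hedgehog ligand of the kind known from flies and vertebrates. It has instead large families of secreted hedgehog-related proteins, the warthog (*wrt*), groundhog (*grd*), ground-like (*grl*), quahog (*qua-1*) and *hog-1* products, and many Patched-related membrane proteins with a sterol-sensing domain (*ptr*). Several genes of both kinds are needed for moulting. The *mlt* genes were named from animals that fail to shed the old cuticle, and *noah-1* and *noah-2* encode zona pellucida domain proteins of the matrix on the outer face of the epidermis. Levels of such genes in whole animals depend on how far the animals are from a moult. In bulk libraries like these, fewer epidermal cells and less RNA per cell cannot be told apart.

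Total counts were 27.7 to 60.8 M (1 M is 1e+06) per library (median 37.3 M), of which the 93 genes took 0.0743% to 0.123%, or 23687 to 70256 counts. Levels are given as CPM, the counts of a gene divided by the library size in M after TMM scaling, and a mean level is the mean of log2 CPM. Ribosomal RNA genes took 3.19% to 24.3% of counts. F3 recovery replicate 3 and F3 control replicate 3 had 18240 and 19610 genes with a count, against at least 20503 in the other libraries, so F3 results are given with and without them. Every marker gene of epidermis, intestine, muscle, pharynx, neurons, glia, germline, sperm, oocytes and males had counts, and the 9 tested markers of hypodermis and seam summed to 673 to 1490 CPM per library, against 3.12 to 11.2 CPM for the 6 male markers. A gene was called when edgeR's quasi-likelihood test gave an adjusted p under 0.05 over all 17627 genes.

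Compared per kilobase of exon, the most abundant members were *grd-5* at a mean of 261 CPM per kb over the 33 libraries, *grd-3* at 97.7, *grd-14* at 67.2 and *ptr-2* at 62.2. The highest of the *grl* family was *grl-4* at 30.3 CPM per kb, and that of the *wrt* family *wrt-5* at 16.3. The 11 members with too few counts to be tested were *grl-3*, *grl-6*, *grl-11*, *grl-13*, *grl-19*, *grl-24*, *grl-29*, *grd-7*, *grd-8*, *wrt-7* and *ptr-9*, whose highest counts in any library were 2 to 15.

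The 93 genes are spread over all 6 chromosomes of the WBcel235 annotation, 34 on V, 15 on IV, 14 on X, 12 on II, 11 on I and 7 on III. Some are close neighbours. The exons of *wrt-1* (II, 7530996 to 7533246, plus strand) and *wrt-10* (II, 7533262 to 7534563, minus strand) are 16 bases apart, and *grd-13*, *grd-3* and *grd-10* follow each other on the plus strand of IV at gaps of 148 and 602 bases. The exons of *mlt-10* (II, 546705 to 552032, plus strand) share 109 bases with *lips-7* on the same strand, and those of *wrt-3* share 1002 bases with an annotated pseudogene, so their levels are less certain. The exons of *mlt-11* likewise share 90 and 112 bases with the non-coding RNA genes W01F3.4 and W01F3.5 on the same strand. *mlt-8*, another *mlt* gene, lies 17178 bases from *mlt-10*.

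Between successive control generations 57 of the 82 members were called at least once, beside 50.8% of all genes, and in the 4 comparisons of exposed with control animals 12 were, beside 15.3% of all genes. More calls between generations than within them are thus found over all genes too. The mean level of the 82 members was 0.72 ± 0.10 log2 CPM in F0 controls (mean ± SD, n = 3 in each group), 1.77 ± 0.13 in F1, 2.07 ± 0.20 in F2 and 1.17 ± 0.25 in F3 controls. Exposed animals were at 0.74 ± 0.06, 2.04 ± 0.05, 1.64 ± 0.08 and 1.43 ± 0.36 in F0 to F3. Recovery animals were at 1.88 ± 0.05, 1.42 ± 0.05 and 1.09 ± 0.21 in F1 to F3. In order, the 2 F0 groups were lowest, followed by the F3 recovery and control groups, whose libraries overlapped, and the F2 control and F1 exposed groups were highest, with overlapping libraries. The summed level of all members ran from 724 to 1270 CPM in single libraries.

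Each family had its own span. The mean level of the 9 tested *wrt* genes was 0.5 log2 CPM in F0 controls, 2.4 in F1, 2.64 in F2 and 1.1 in F3 controls. That of *hog-1* and *qua-1* was 0.65, 2.89, 3.04 and 1.18, and that of the 8 *mlt* genes 1.72, 2.83, 3.14 and 2.04. The mean of the 24 *grl* genes was -1.07, 0.1, 0.44 and -0.42. The *ptr* mean moved less, at 1.89, 2.49, 2.8 and 2.11. All these families had their highest control mean in F2 and their lowest in F0. In F2 the mean of each of the 7 groups of genes was lower in exposed and lower again in recovery animals than in controls, for example 2.64, 1.99 and 1.65 for *wrt* and 3.04, 2.54 and 1.98 for *hog-1* with *qua-1*.

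**Figure D1:**
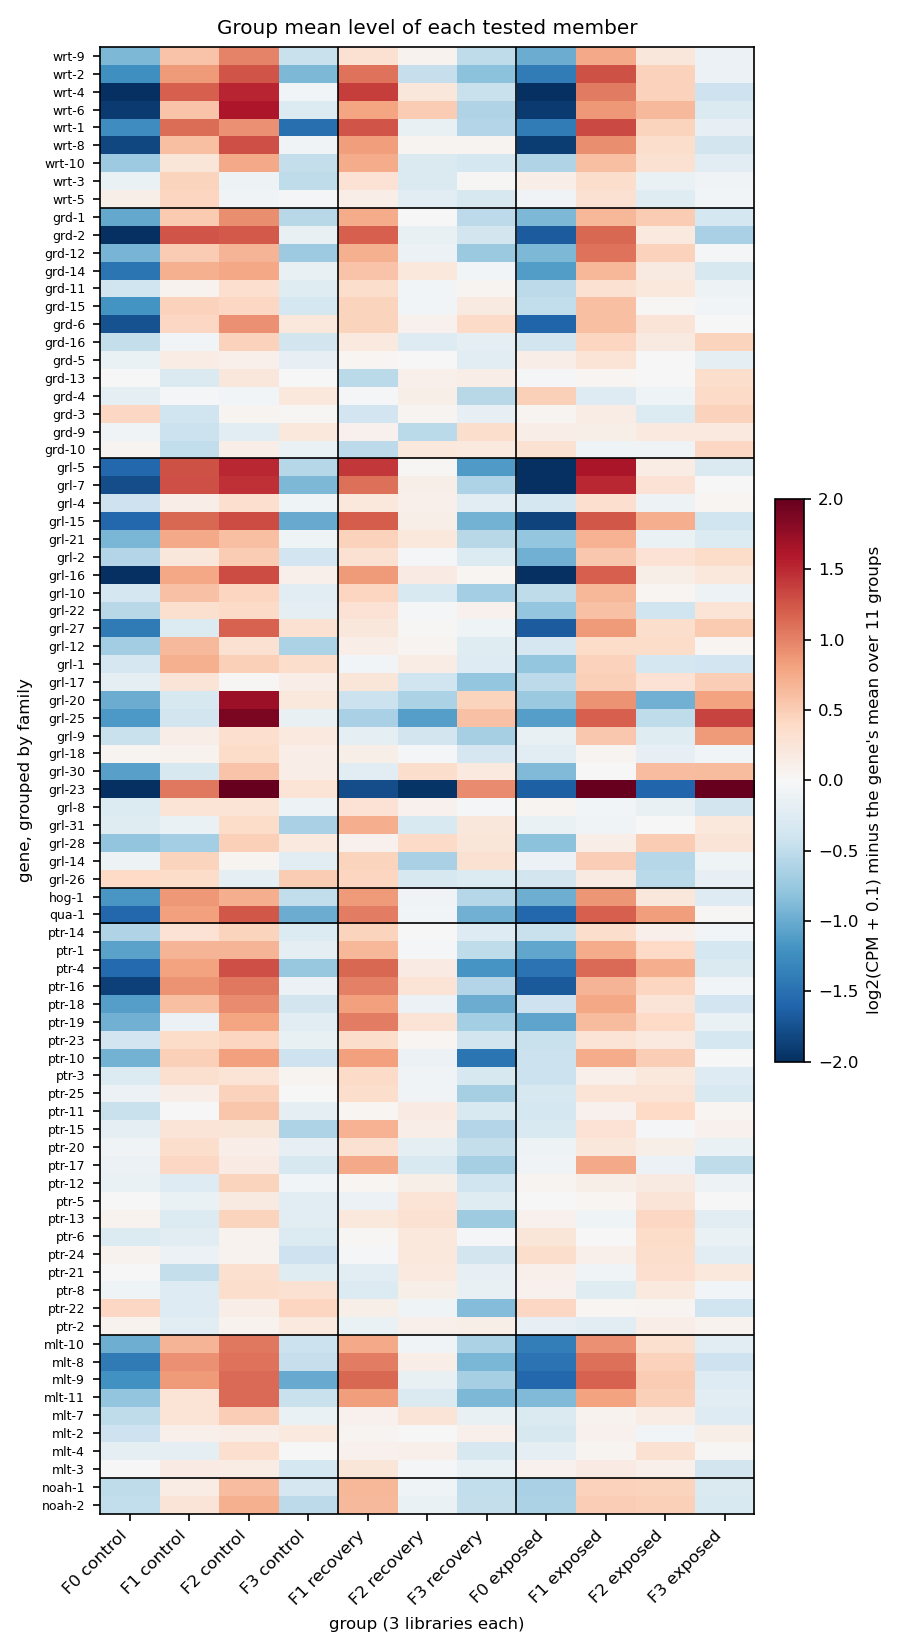
Level of each of the 82 tested members in the 11 groups, as colour for the log2 difference from the gene's own mean over groups, with families separated by horizontal lines and control, recovery and exposed groups by vertical lines; colours stop at a difference of 2. Most *wrt*, *mlt* and *hog-1* with *qua-1* entries are blue in F0 and F3 and red in F1 and in F2 controls, while the lower part of the *ptr* block and the end of the *grd* block stay pale.

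Many secreted hedgehog-related genes differed between control generations. From F0 to F1 controls 40 members rose and 4 fell, beside 19.8% of all genes called, 10.6% higher and 9.21% lower. The median log2 fold change was 0.92 over the members and -0.02 over all genes. Among other lists, 6 of 10 oocyte and embryo markers, 3 of 6 germline markers and 6 of 6 vitellogenins fell and none rose. Of 9 hypodermis and seam markers 3 rose and 1 fell, and of 8 intestine markers 1 rose and 2 fell. Sperm, body wall muscle and neuron markers had no call. The part of these lists in the change of the members was not tested. Of the *wrt* family 8 of 9 tested genes were higher, beside 7 of 14 *grd* genes higher with 2 lower, and 10 of 24 *grl* genes higher. *wrt-4* was at 0.808, 0.817 and 0.682 CPM in the F0 control libraries and at 14.5, 12.4 and 10.6 CPM in those of F1. Every F1 library lay far above every F0 library, a 16.2-fold difference (log2 fold change 4.02 with SE 0.48, edgeR adjusted p = 1.4e-06). *grd-2* rose 14-fold, *grl-7* 9.07-fold, *grl-16* 7.27-fold, *grd-6* 4.59-fold, *grd-14* 4.5-fold and *grd-1* 3.06-fold, in each case with no overlap of libraries (edgeR adjusted p at most 6.7e-07).

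*qua-1* (WBGene00004264; II, 8198803 to 8204004, plus strand), the single quahog gene, had 3.18, 2.45 and 2.97 CPM in F0 controls and 17.5, 17.4 and 11.5 CPM in F1 controls. The lowest F1 library was thus well above the highest F0 library, and the rise was 5.39-fold (log2 fold change 2.43 with SE 0.29, edgeR adjusted p = 1.1e-06). *hog-1* rose 4.49-fold, from 0.795 ± 0.104 to 3.57 ± 0.265 CPM (n = 3 each, edgeR adjusted p = 6.7e-06).

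The Patched-related family was split. Of 23 tested *ptr* genes 8 were higher in F1 than in F0 controls and 2 were lower. *ptr-16* had 0.512, 0.234 and 0.6 CPM in F0 controls and 3.78, 3.69 and 3.47 CPM in F1 controls, an 8.22-fold rise without overlap (log2 fold change 3.04 with SE 0.29, edgeR adjusted p = 3.5e-08). *ptr-14* rose 1.87-fold (adjusted p = 6.2e-07). *ptr-2*, the member with the highest CPM, went the other way, from 200, 184 and 182 CPM to 150, 159 and 150 CPM. All 3 F1 libraries were below all 3 F0 libraries, although the fall was only 1.23-fold (edgeR adjusted p = 0.0016). *ptr-21* fell 1.4-fold, *grd-10* 1.45-fold and *grd-3* 1.77-fold (edgeR adjusted p = 0.0019, 0.029 and 0.032).

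Among the *mlt* genes, 4 of 8 rose from F0 to F1. *mlt-10* (WBGene00015646), which encodes a nematode secreted protein and is often used as a reporter of moulting, was at 6.17, 5.16 and 4.69 CPM in F0 and at 16, 19.4 and 15.6 CPM in F1 controls. The groups did not overlap, and the rise was 3.18-fold (log2 fold change 1.67 with SE 0.20, edgeR adjusted p = 5.4e-07). *mlt-9* rose 4.39-fold and *mlt-7*, a haem peroxidase gene of cuticle cross-linking, 1.74-fold (adjusted p = 2.0e-06 and 0.00015). *mlt-8* was at 6.6, 4.34 and 4.07 CPM in F0 and 28.5, 25.3 and 22.3 CPM in F1 controls, a 5.07-fold rise without overlap (edgeR adjusted p = 3.2e-06). *mlt-2*, *mlt-3* and *mlt-4*, whose ankyrin-repeat products act inside the cell with NEKL kinases in endocytosis, were not called, with log2 fold changes of 0.54, 0.19 and 0.01 (adjusted p = 0.088, 0.31 and 0.97). *noah-2* rose 1.7-fold (adjusted p = 0.031), while *noah-1* was at 20.8, 11.7 and 9.61 CPM in F0 and 22.1, 24.8 and 20.1 CPM in F1 controls and was not called.

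From F1 to F2 controls few members changed, 9 higher and 2 lower, beside 23.5% of all genes called, 12.8% higher and 10.6% lower. 6 of the 9 rises were *ptr* genes. *ptr-21* had 34.6, 39.9 and 40.9 CPM in F1 and 74, 66.1 and 61.5 CPM in F2 controls, a 1.75-fold rise (edgeR adjusted p = 2.5e-06). *ptr-2* rose 1.24-fold, back to the level of F0 controls, *ptr-13* rose 1.65-fold and *grl-27* 2.8-fold (edgeR adjusted p = 0.0008, 0.0021 and 0.0012). *wrt-5* and *wrt-3* fell 1.43-fold and 1.49-fold (edgeR adjusted p = 0.0084 and 0.031).

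From F2 to F3 controls the direction was the opposite: 46 members fell and none rose, beside 29.2% of all genes called and 16.3% called lower. The median log2 fold change was -0.72 over the members and -0.03 over all genes. Both *noah* genes, both of *hog-1* and *qua-1*, 7 of 9 *wrt*, 6 of 8 *mlt*, 15 of 23 *ptr*, 7 of 14 *grd* and 7 of 24 *grl* genes were lower. *wrt-1* was at 6.51, 6.99 and 5.98 CPM in F2 and at 1.65, 0.648 and 1.11 CPM in F3 controls, with no overlap and a 5.87-fold fall (log2 fold change -2.55 with SE 0.37, edgeR adjusted p = 4.4e-05).

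*qua-1* fell 4.8-fold between these controls, *mlt-9* 4.7-fold, *grl-7* 5.38-fold, *grl-15* 5.04-fold, *ptr-4* 4.43-fold and *mlt-8* 2.99-fold (edgeR adjusted p at most 0.0004). *mlt-11*, which encodes a Kunitz-type protease inhibitor, was at 19.3, 26.8 and 18.9 CPM in F2 and 9.39, 3.19 and 8.95 CPM in F3 controls. Its libraries did not overlap, and the fall was 3.04-fold (log2 fold change -1.60 with SE 0.42, edgeR adjusted p = 0.0059). *noah-1* fell 1.94-fold and *noah-2* 2.4-fold (adjusted p = 0.0085 and 0.00081). Among the 3 intracellular *mlt* genes *mlt-3* fell 1.44-fold (adjusted p = 0.0046), while *mlt-2* and *mlt-4* had log2 fold changes of 0.08 and -0.36 (adjusted p = 0.81 and 0.28). Markers of several other cell types were lower beside them: 22 of 29 major sperm protein genes, 5 of 6 pharynx, 5 of 8 sperm, 4 of 8 intestine, 3 of 6 body wall muscle and 3 of 6 neuron markers fell and none of these rose, while 5 of 9 hypodermis and seam markers fell and 1 rose. Germline and oocyte markers did not fall: 0 of 6 and 0 of 10 were called, with median log2 fold changes of 0.12 and 0.08. The hypodermis and seam list itself holds cuticle collagens, among them *bli-1* and *col-19*, which were both called lower. The summed pharynx markers were at 304 to 418 CPM in F2 and 222 to 256 CPM in F3 controls, and those of hypodermis and seam at 882 to 1490 and 673 to 1070 CPM. Their part in the change of the members was not tested. A fit of these 6 libraries alone called 11 members, and with the mean collagen level of each library as a covariate 1 member was called here and 9 from F0 to F1. That collagen level was 2.56, 3.96, 4.23 and 3.11 log2 CPM in F0, F1, F2 and F3 controls. Covariate and generation were thus partly the same contrast, and the lower counts do not single out the members. Without the libraries with few detected genes 43 members were called, 42 of them lower and 1 higher.

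The rise from F0 to F1 and the fall from F2 to F3 were measured on libraries that do not overlap between the comparisons. 35 members were in both, 87.5% of the 40 that rose and 76.1% of the 46 that fell. For cuticle collagens the same figures were 88 genes, 95.7% and 79.3%, and for all genes tested 961, 51.4% and 33.5%. The labels give no sampling time beyond the generation, and generation and the time of sampling cannot be told apart.

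**Figure D2:**
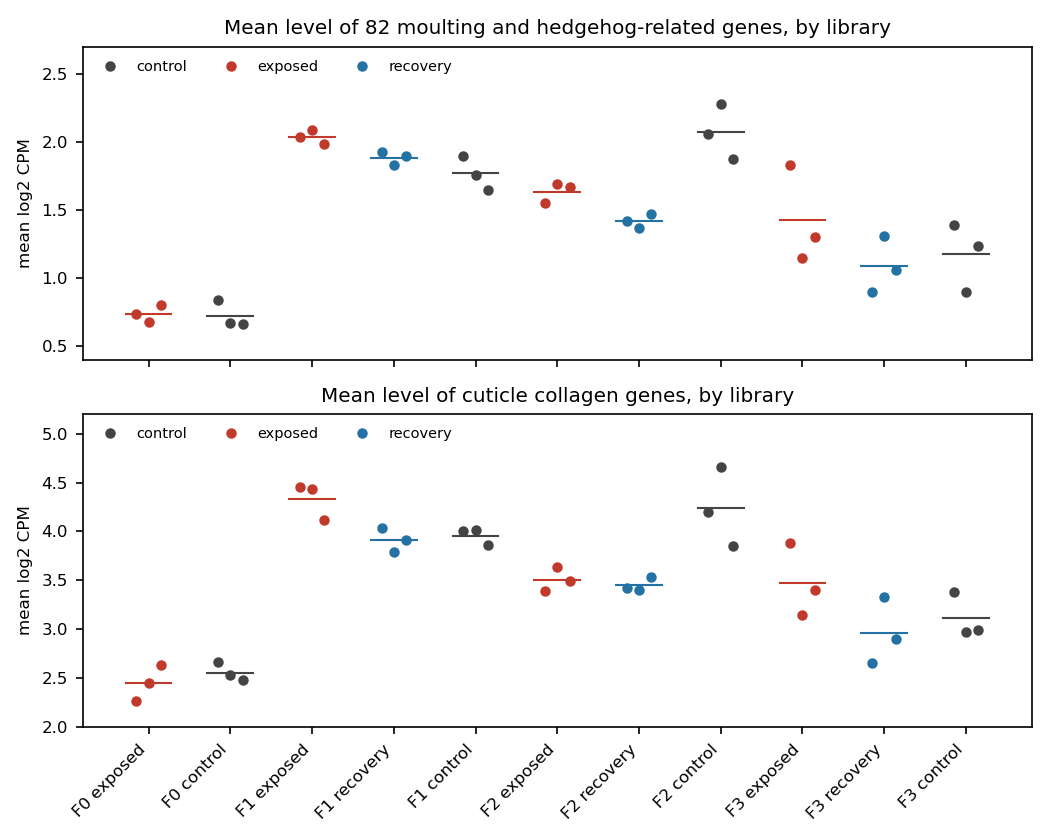
Mean log2 CPM of the 82 tested members (upper panel) and of 154 tested cuticle collagen genes (lower panel) in each library, with 3 points and a line for the mean in each of the 11 groups. By group mean both panels are lowest in F0 and highest in the F1 exposed and F2 control groups, and in F2 all control points lie above the exposed and recovery points.

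Cuticle collagens, which hold no member, moved the same way. Their mean level was 2.56 ± 0.09 log2 CPM in F0 controls, 3.96 ± 0.08 in F1, 4.23 ± 0.41 in F2 and 3.11 ± 0.23 in F3 controls (n = 3 each). Within a generation the mean of the members and that of the collagens correlated over libraries at r = 0.52 in F0 (n = 6), 0.81 in F1, 0.96 in F2 and 0.94 in F3 (n = 9 each). Points of such a plot share their library and its depth, and these values are a description. Without the 2 libraries farthest from the median collagen level, r was 0.87, 0.6, 0.87 and 0.8.

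Over the 11 group means, 28 of 82 members (34.1%) followed the collagen mean with r above 0.9, beside 2.98% of all genes tested. The share was 48.7% for the collagens, each of which is part of that mean, so it is not a like measure. By role the 28 members were 7 of 9 *wrt* genes, both *hog-1* and *qua-1*, 4 of 8 *mlt*, 7 of 24 *grl*, 4 of 14 *grd* and 4 of 23 *ptr* genes. *mlt-10*, *wrt-9*, *grl-5* and *grl-7* were the closest, each with r = 0.98, and *noah-1* and *noah-2* were at 0.89. The range of group means was above 1 log2 unit in 58 members (70.7%) and in 30.1% of all genes.

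The others followed less closely, and 10 of the 82 had r below 0: *grd-10* (-0.44), *grd-9* (-0.35), *grd-3* and *ptr-2* (-0.33 each), *ptr-22* (-0.18), *grd-4* (-0.16), *grd-13* and *ptr-8* (-0.14 each), *ptr-21* (-0.04) and *ptr-24* (-0.01). *ptr-2* and *grd-3* are among the most abundant members. The group means of *ptr-2* spanned 0.41 log2 units and those of *grd-5*, with r = 0.55, 0.51 log2 units, against 4.26 for *wrt-4*. *grd-13*, *grd-3* and *grd-10* are the 3 neighbours on IV.

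**Figure D3:**
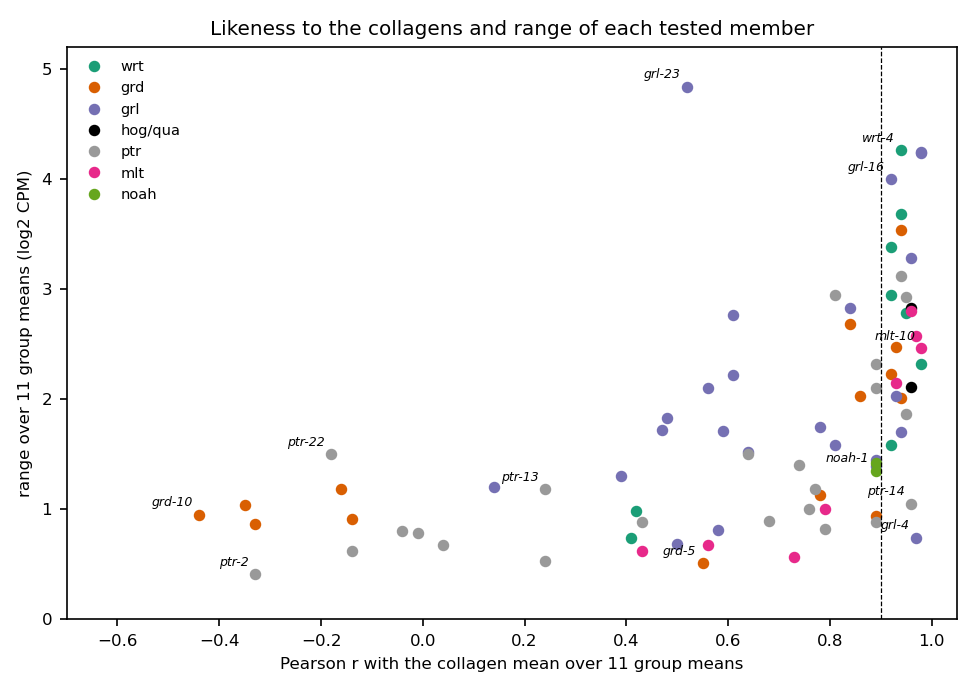
Pearson r of each tested member with the mean of the cuticle collagens over 11 group means (x) against the range of its group means in log2 CPM (y), coloured by family; the dashed line marks r = 0.9. 7 of 9 *wrt* and 4 of 8 *mlt* genes lie to the right of the line, *wrt-4* with a range of 4.26, and *ptr-2* and *grd-10* lie at r of -0.33 and -0.44.

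In F0, the first irradiated generation, edgeR called 0 of 82 members, beside 1.36% of all genes, and DESeq2 called 1. An unadjusted p under 0.05 was reached by 9 members (11%) and by 16.2% of all genes. The median log2 fold change was 0.03 over members and 0.01 over all genes. *mlt-10* was at 3.27, 3.6 and 5.07 CPM in exposed and 6.17, 5.16 and 4.69 CPM in control libraries, which overlapped. In F1 *ptr-21* was the single call, beside 1.47% of all genes called and 0.942% called higher. It was at 51.4, 52.1 and 50 CPM in exposed and 34.6, 39.9 and 40.9 CPM in control animals, 1.33-fold higher without overlap (edgeR adjusted p = 0.045), and the call was lost without any 1 of the 6 libraries. The median was 0.20 over the members and 0 over all genes, and 63 of 82 members had a positive log2 fold change.

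In F2 exposed animals 9 members fell and none rose, beside 9% of all genes called and 6.2% called lower. The count called either way lies near the 9% of all genes. The median was -0.40 over members and -0.02 over all genes. In 31 members the exposed libraries all lay under the controls, beside 16.9% of all genes. The 9 were *grl-16*, *grl-4*, *grl-5*, *grl-7*, *grl-20*, *wrt-8*, *grd-2*, *ptr-14* and *mlt-10*, that is 5 of 24 *grl* genes, 1 of 9 *wrt*, 1 of 14 *grd*, 1 of 23 *ptr* and 1 of 8 *mlt* genes, with neither *hog-1* nor *qua-1*.

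*mlt-10* had 27.6, 21.6 and 17.1 CPM in F2 controls and 11.7, 14.5 and 13.4 CPM in F2 exposed animals. The highest exposed library was under the lowest control, and the fall was 1.66-fold (log2 fold change -0.73 with SE 0.19, edgeR adjusted p = 0.015). *grl-16* fell from 35.1, 43.3 and 21.6 CPM to 12.3, 15.1 and 16.3 CPM without overlap (log2 fold change -1.20 with SE 0.26, edgeR adjusted p = 0.0069). *grl-5* fell 2.58-fold, *grl-7* 2.26-fold, *grd-2* 2.13-fold, *wrt-8* 1.98-fold, *grl-4* 1.35-fold and *ptr-14* 1.27-fold (edgeR adjusted p from 0.012 to 0.046). Of these, *grl-5* had 15.7, 12 and 5.5 CPM in control and 3.95, 4.44 and 4.29 CPM in exposed libraries, and *grl-7* 15.3, 11.3 and 6.55 against 5.25, 4.75 and 4.53 CPM. In both the control libraries were widely spread, replicate 3 being the lowest, and the exposed libraries lay close together under it. *qua-1* was at 13.9, 20 and 13 CPM in exposed and 24.1, 22.1 and 16.5 CPM in control libraries, which overlapped, and was not called.

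**Figure D4:**
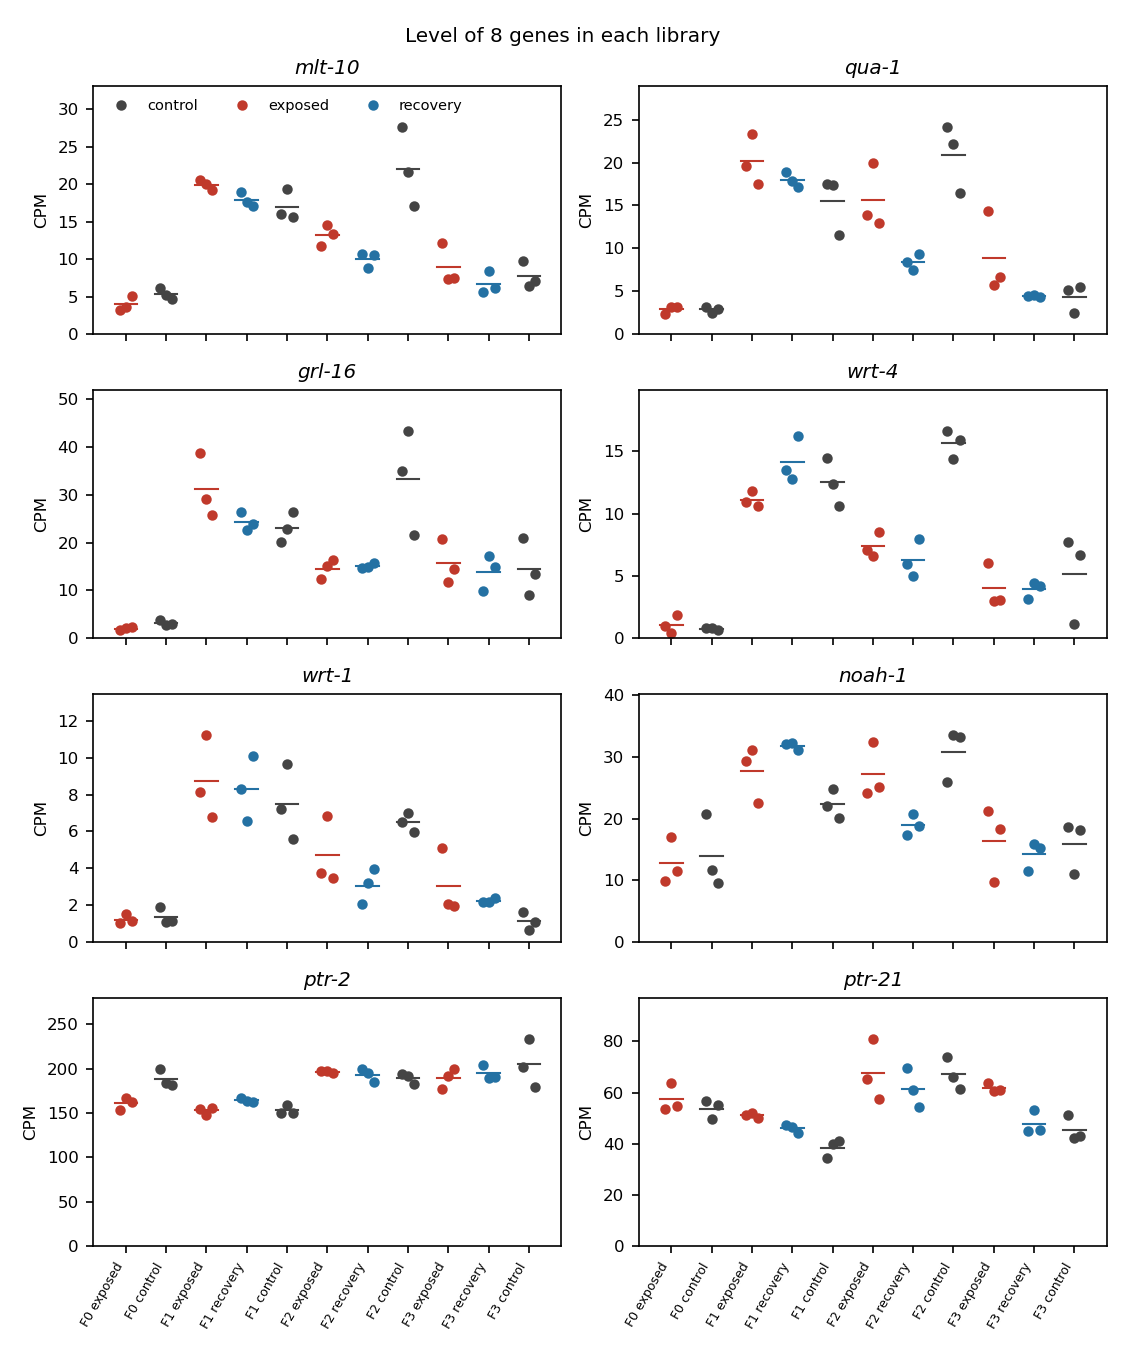
Level in CPM of 8 members in each of the 33 libraries, with 3 points and a line for the mean in each group, on a linear axis from 0. *mlt-10*, *qua-1*, *grl-16*, *wrt-4* and *wrt-1* are low in F0, high in F1 and in F2 controls and lower in F3, *noah-1* follows less steeply, and *ptr-2* stays between 148 and 233 CPM.

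The F2 count depended on single libraries. The F2 control libraries had mean collagen levels of 4.20, 4.66 and 3.85 log2 CPM, a wider spread than the 3.39, 3.64 and 3.49 of exposed ones, and ribosomal RNA shares of 24.3%, 10.5% and 14% against 7.42%, 11.6% and 10.4%. Without control replicate 2 no member was called in F2 exposed animals, 4 were without replicate 1 and 11 without replicate 3. A fit of the 6 libraries alone called 14. Without exposed replicates 1, 2 and 3 the counts were 1, 3 and 4. *grl-16* lost its call only without control replicate 2 and with the collagen covariate described next, of the 12 alternatives run for it.

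Adding the mean collagen level of each library to the model asked whether members differed beyond the collagens. With it no member was called in F2 exposed animals, and 10 of all genes were called in place of 1587. Since the collagen level itself was 4.23 ± 0.41 in F2 controls and 3.51 ± 0.13 in F2 exposed animals (n = 3 each), treatment and collagen level were partly the same contrast in these 6 libraries. Whether stage or radiation accounts for the lower members was not tested. Other genes moved beside them: 47 of 154 cuticle collagens and 28 of 29 major sperm protein genes were lower, as were 7 of 8 sperm and 2 of 6 pharynx markers, and 2 of 6 vitellogenins were higher.

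In F3 exposed animals *wrt-1*, *qua-1* and *ptr-21* were higher than in controls. These 3 members were called higher and none lower, beside 5.24% of all genes called and 2.87% called higher, with a median of 0.17 over members and 0 over all genes. *wrt-1* was at 5.12, 2.05 and 1.95 CPM in exposed and 1.65, 0.648 and 1.11 CPM in control libraries, *qua-1* at 14.4, 5.69 and 6.67 against 5.18, 2.41 and 5.51 CPM, and *ptr-21* at 63.6, 60.7 and 61.1 against 51.3, 42.2 and 43.1 CPM. None of the 3 overlapped, but *wrt-1* and *qua-1* were high above all in exposed replicate 1. The rises were 2.74-fold, 2.05-fold and 1.36-fold (edgeR adjusted p = 0.029, 0.034 and 0.014).

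Exposed replicate 1 of F3 had a mean member level of 1.83 log2 CPM, against 1.15 and 1.3 in the other exposed libraries, and a ribosomal RNA share of 20.8% against 6.8% and 6.03%. Without it only *ptr-21* was called. Without the libraries with few detected genes *qua-1* alone kept its call, with no filter on low counts 1 member was called, and a fit of the 6 libraries alone called 0 members and 0 of all genes. Male markers moved beside these genes: 2 of 6, *mab-3* and *asic-2*, were higher in F3 exposed animals (edgeR adjusted p = 0.013 and 0.015), and the 6 summed to 6.56 to 8.85 CPM in exposed and 3.12 to 4.1 CPM in control libraries, without overlap. Of the 9 hypodermis and seam markers 1, the collagen *bli-1*, was higher and 2, *elt-1* and *lin-26*, were lower (edgeR adjusted p = 0.017, 0.023 and 0.024). The part of male markers, depth and ribosomal RNA in these differences was not tested.

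Recovery animals, descended from animals irradiated in F0, were compared with the same control libraries as the exposed animals of their generation, so the results of the 2 comparisons are not independent. The F2 controls also enter both comparisons with the neighbouring control generations. In F1 recovery animals 1 member was called, *ptr-19*, beside 2.81% of all genes called and 2.05% called higher. It had 0.925, 1.23 and 1.63 CPM in recovery and 0.626, 0.452 and 0.475 CPM in control libraries, 2.36-fold higher without overlap (log2 fold change 1.24 with SE 0.35, edgeR adjusted p = 0.047). The call was lost without recovery replicate 2 or 3 or any 1 of the control libraries.

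In F2 recovery animals 14 members fell and none rose, beside 3.05% of all genes called and 2.81% called lower. The median was -0.56 over members and -0.02 over all genes. The 14 were *wrt-2*, *wrt-8*, *wrt-10*, *grd-1*, *grd-2*, *grd-6*, *grl-5*, *grl-7*, *grl-16*, *grl-27*, *qua-1*, *ptr-14*, *mlt-9* and *mlt-10*. *mlt-10* had 10.7, 8.87 and 10.5 CPM in recovery libraries and 27.6, 21.6 and 17.1 CPM in controls, a 2.19-fold fall without overlap (log2 fold change -1.13 with SE 0.19, edgeR adjusted p = 0.0043). It kept its call in 11 of 12 alternatives, all but the collagen covariate. *qua-1* was at 8.37, 7.45 and 9.36 CPM against 24.1, 22.1 and 16.5 CPM, and fell 2.48-fold without overlap (log2 fold change -1.31 with SE 0.27, edgeR adjusted p = 0.014).

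*mlt-9* fell 2.47-fold, *grd-1* 1.91-fold, *wrt-2* 3.49-fold, *wrt-10* 2.08-fold and *grd-6* 1.79-fold in F2 recovery animals (edgeR adjusted p from 0.0065 to 0.034). *mlt-11* was at 6.99, 8.08 and 8.87 CPM against 19.3, 26.8 and 18.9 CPM in controls, and *noah-2* at 11, 12.2 and 14.1 against 23.7, 23.5 and 20.4 CPM. Their libraries did not overlap, but the adjusted p was 0.052 and 0.053 (edgeR), so neither was called. *mlt-8* was at 14.1, 13.7 and 16.5 against 32.9, 28.5 and 24.9 CPM, and missed the threshold as well (adjusted p = 0.057). DESeq2 called 23 members. The edgeR count was 2, 1 and 6 without recovery replicates 1, 2 and 3, and 5, 1 and 26 without control replicates 1, 2 and 3. With the collagen covariate it was 0, with 2 of all genes called.

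In F3 recovery animals *ptr-22* was the single call, beside 1.58% of all genes called and 0.669% called lower, and the median was -0.07 over members and -0.01 over all genes. *ptr-22* was at 0.427, 0.495 and 0.154 CPM in recovery and 1.01, 0.7 and 1.37 CPM in control libraries, 2.86-fold lower without overlap (edgeR adjusted p = 0.044). The call was lost without F3 recovery replicate 1 or 3, without control replicate 1 or 3, and without both libraries with few detected genes. 6 members were called without recovery replicate 2, and 6 without control replicate 2.

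**Figure D5:**
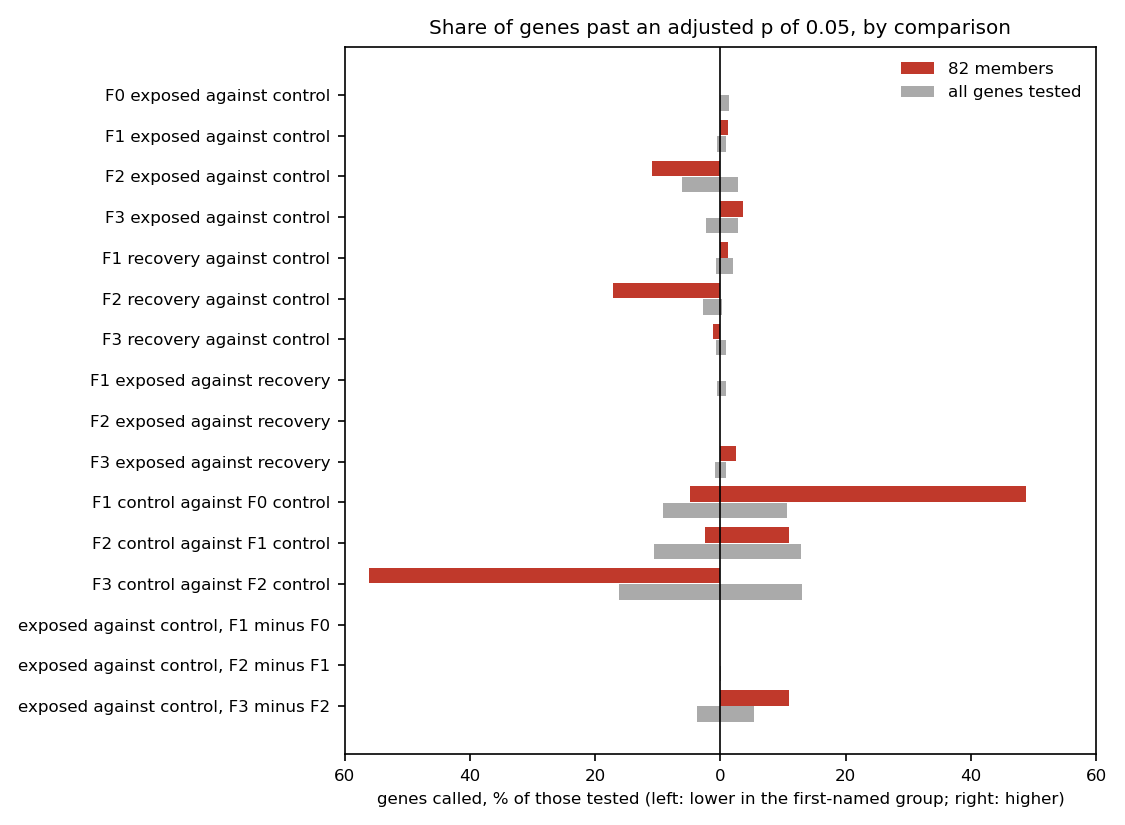
Percent of the 82 tested members (red) and of all 17627 genes tested (grey) called by edgeR in each of 16 comparisons, drawn to the left where lower and to the right where higher in the first-named group; for the last 3, where higher or lower means a difference between generations, right is higher in the later generation. The longest red bars are those between control generations, at 40 rises and 46 falls, followed by the falls in F2.

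Few members were called between exposed and recovery animals of the same generation. In F1 edgeR called 0 members, beside 1.45% of all genes, and DESeq2 called 1. An unadjusted p under 0.05 was reached by 6 members (7.32%) and by 13.9% of all genes. In F2 edgeR called 0, beside 0.00567% of all genes, and DESeq2 called 0, with 7 members (8.54%) and 6.52% of all genes at an unadjusted p under 0.05. The largest difference by p in F2 was that of *qua-1*, higher in exposed animals by 0.90 on the log2 scale (SE 0.27, edgeR adjusted p = 0.57). In F3 *grd-4* and *grl-17* were called, both higher in exposed animals, beside 1.68% of all genes called and 0.817% called higher.

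*grd-4* was at 2.19, 2.08 and 2.31 CPM in F3 exposed and 1.33, 1.43 and 0.504 CPM in F3 recovery libraries, a 2.01-fold difference without overlap (edgeR adjusted p = 0.037). *grl-17* was below 1 CPM in every library, at 0.585, 0.357 and 0.289 against 0.137, 0.156 and 0.0439 CPM (edgeR adjusted p = 0.047). Recovery replicate 3, the library with 18240 detected genes, was the lowest in both. Without it, without exposed replicate 1 or without exposed replicate 3 neither was called. The count was 7 without exposed replicate 2 and 5 without recovery replicate 2.

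The difference between exposed and control animals was itself compared between generations. From F0 to F1 edgeR called 0 members, beside 0.0567% of all genes, and DESeq2 called 0, with 10 members (12.2%) and 14.2% of all genes at an unadjusted p under 0.05. From F1 to F2 edgeR called 0, beside 0.0681% of all genes, with 28 members (34.1%) and 15.5% of all genes at an unadjusted p under 0.05. DESeq2 called 5 members there, all lower, and 387 of all genes. 10 members, all lower, were called in that comparison without F2 control replicate 3. From F2 to F3 9 members were called, all with a higher difference in F3, beside 9.07% of all genes called and 5.4% called higher, with a median of 0.56 over the members and 0.03 over all genes. The count called either way lies near the 9.07% of all genes. The 9 members were *grl-4*, *grl-7*, *grl-16*, *grl-23*, *wrt-1*, *qua-1*, *ptr-14*, *mlt-9* and *mlt-10*. For *grl-7* the log2 fold change of exposed against control animals was -1.17 in F2 and 0.96 in F3, a difference of 2.13 (SE 0.48, edgeR adjusted p = 0.01). In F3 against F2 the difference of *mlt-10* was 0.95 (SE 0.27, adjusted p = 0.031). Without the libraries with few detected genes 9 were called as well. The count was 1 without F2 control replicate 2, 2 without F2 exposed replicate 1 or F3 exposed replicate 1, 4 without F2 exposed replicate 3 and 17 without F2 control replicate 3.

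Over the 10 comparisons within generations, 22 of 82 members were called at least once: 12 in exposed against control, 16 in recovery against control and 2 in exposed against recovery animals. Over all genes the shares called at least once were 20.4% in the 10, and 15.3%, 7.26% and 3.08% in these sets, so the members' count for the 10 together lies near the background. The count of 12 in exposed against control animals lies near its 15.3% as well. That of 16 in recovery against control animals lies above its 7.26%, with 14 members called in F2 recovery animals.

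The genes *grl-20*, *grl-23* and *grl-25*, chosen after their values were seen, were spread widely between libraries of 1 group in several groups. Their means were higher in F1 exposed than in F0 animals, but none was called in F1 exposed against control. In the 3 F1 exposed libraries *grl-23* was at 1.73, 2.32 and 2.36 CPM, *grl-25* at 0.951, 0.782 and 1.25 CPM and *grl-20* at 0.835, 0.415 and 0.451 CPM, while *grl-23* was at 0.0214 to 0.114 CPM in F0 exposed libraries. In F1 controls *grl-23* was at 2.69, 0.188 and 0.028 CPM, the first above every F1 exposed library. The F1 control means of *grl-25* and *grl-20* were 0.271 and 0.185 CPM. In F2 *grl-23* was at 7.85 CPM in F2 control replicate 2 and at 0.084 and 0.205 CPM in the other F2 controls, and *grl-25* at 4.5 against 0.336 and 0.159 CPM. *grl-20* was at 2.8 CPM in the same library against 0.252 and 0.136 CPM. These 3 genes were also raised together in F3 exposed replicate 1, at 4.75, 2.16 and 1.1 CPM for *grl-23*, *grl-25* and *grl-20*. The call of *grl-20* in F2 exposed animals came with overlapping libraries, and its 11.9-fold change rests on control replicate 2. The 3 genes lie on different chromosomes, IV, V and III.

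Other genes of moulting, developmental timing and the Patched pathway give the setting. Of 41 further moulting genes, 14 rose and 2 fell from F0 to F1 controls, beside 10.6% and 9.21% of all genes. From F2 to F3 controls 19 fell and none rose, beside 16.3% of all genes called lower. In F2 exposed animals 2 fell, under the 6.2% of all genes called lower. In F2 recovery animals 8 fell, beside 2.81% of all genes. *lin-42*, the worm homologue of the clock gene *period*, whose transcript cycles with the moults, was at 5.74, 3.83 and 5.05 CPM in F0 controls, 9.04, 9.87 and 10.7 in F1, 33.1, 31.9 and 26.8 in F2 and 11.7, 9.41 and 10.4 CPM in F3 controls. It was thus highest in the F2 controls, with no overlap with any other control generation. It fell 1.7-fold in F2 exposed and 2.57-fold in F2 recovery animals (edgeR adjusted p = 0.0042 and 8.8e-06), and rose 1.53-fold and 2.1-fold in F1 exposed and recovery animals (adjusted p = 0.031 and 0.00011).

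*bed-3*, a zinc finger gene needed for moulting, rose 3.23-fold from F0 to F1 controls and fell 1.78-fold in F2 exposed and 1.79-fold in F2 recovery animals (edgeR adjusted p = 1.8e-07, 0.0052 and 0.014). *nhr-23*, the nuclear receptor gene needed for moulting, was chosen after its values were seen. It was at 38.7 to 66.1 CPM in the libraries, fell 1.25-fold from F0 to F1 controls and rose 1.27-fold from F1 to F2 (adjusted p = 0.025 and 0.013). In F2 its log2 fold change was 0.20 in exposed and 0.14 in recovery animals (adjusted p = 0.21 and 0.45). *blmp-1*, a transcription factor gene of the epidermis, fell 1.99-fold from F2 to F3 controls (adjusted p = 8.5e-07).

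Of 14 Patched, Dispatched and sterol-sensing relatives, 4 rose and 4 fell from F0 to F1 controls, beside 10.6% and 9.21% of all genes. From F2 to F3 controls 1 rose and 5 fell, beside 29.2% of all genes called and 16.3% called lower. *hhat-1*, a homologue of the acyltransferase that modifies Hedgehog, rose 2.52 on the log2 scale and then fell by 1.92 (edgeR adjusted p = 2.2e-07 and 2.0e-05). *scp-1*, a homologue of the sterol sensor SCAP, was higher in exposed than in control animals in each generation, by 0.37, 0.71, 0.45 and 0.49 on the log2 scale in F0 to F3 (SE 0.10 each, edgeR adjusted p = 0.048, 0.00013, 0.0061 and 0.003). In recovery animals *scp-1* was higher by 0.45 in F1 and 0.51 in F3 (adjusted p = 0.0069 and 0.0071), with 0.26 in F2 (adjusted p = 0.12). *ptc-1*, the Patched homologue of the germline, rose 1.44-fold in F1 recovery animals (adjusted p = 0.00068).

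Of 43 tested zona pellucida and apical matrix genes besides the *noah* pair, 16 rose and 1 fell from F0 to F1 controls, beside 10.6% and 9.21% of all genes. From F2 to F3 controls 17 fell, beside 16.3% of all genes called lower. In F2 exposed animals 2 fell, under the 6.2% of all genes called lower. In F2 recovery animals 3 fell, beside 2.81% of all genes. The collagen *bli-1*, of the struts of the adult cuticle, was at 2.21, 2.5 and 1.96 CPM in F0 controls, 26.5, 25.5 and 15.2 in F2 and 2.33, 1.61 and 3.96 CPM in F3 controls. The F2 libraries lay far above both others, and the fall from F2 to F3 was 8.43-fold (edgeR adjusted p = 7.7e-06). *col-19*, a collagen of the adult epidermis, chosen after its values were seen, had log2 fold changes of -0.44, 0.29 and -0.57 between successive control generations, the last called (adjusted p = 0.13, 0.34 and 0.039). Vitellogenins, made in the adult intestine, went the other way from F0 to F1 controls, 6 of 6 falling. They did not do so between the later control generations: 3 of 6 rose from F1 to F2 controls, and 2 of 6 fell and 0 rose from F2 to F3. In F2 exposed and F2 recovery animals, where members fell, all 6 vitellogenins had positive log2 fold changes against controls, 2 of 6 called in each.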

How the data were processed

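Total RNA of whole animals was made into strand-specific paired-end libraries, per the labels' protocols. The deposited values are gene counts made by the authors, whole numbers without normalisation. STAR and DESeq2 1.22.2 are named, without a role, per the submitters' processing notes. Counter, strand setting, build and annotation were not given in the sources used here. Symbols and positions came from the WBcel235 annotation, in which 46603 of 46778 identifiers were found and 43818 had a symbol.

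The labels gave each library's generation and treatment. All 33 entered 1 edgeR 4.0.16 quasi-likelihood fit (R 4.3.3, TMM, filterByExpr, 11 coefficients, 22 residual degrees of freedom), which pools the spread over groups (common biological coefficient of variation 0.119). P was adjusted (Benjamini-Hochberg) over 17627 genes, threshold 0.05. Standard errors (SE) of log2 values were derived from the F statistic. Mean levels used log2 CPM with a prior count of 2. Total counts limit the precision, and genes under 1 CPM rest on few counts. No library looked like a copy of another (chi-square per degree of freedom at least 8.53 between replicates). The deviations of same-numbered replicates correlated at -0.22 to 0.33, highest in F3 exposed against control at 0.2 and 0.33 for replicates 1 and 2. In no comparison did every pair exceed 0.1, so the numbers were not used as pairs. The model was tested on simulated data.

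Members and lists were chosen with earlier results of these data known. Named were called members without overlap of libraries (not asked of differences between generations) and at least 1 CPM in the higher group, up to 12 each way by p (5 for differences between generations), the most abundant of each family, *noah-1*, *noah-2*, *hog-1*, *qua-1*, *mlt-10* and *mlt-11*, and up to 2 called genes of each other list; the text adds genes chosen for their pattern after their values were seen (*grl-20*, *grl-23*, *grl-25*, *grl-17*, *mlt-2*, *mlt-3*, *mlt-4*, those of the low counts and of r below 0, *nhr-23*, *col-19*, marker genes and *scp-1* where not called). Alternatives were DESeq2 1.42.0, other size factors, no filter, fewer libraries, a collagen covariate and a replicate block. Members of related sequence may share reads, which was not examined.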

Additional observations from a re-analysis of the deposited data

Results flagged for a closer look

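The exposed against control difference differed between F2 and F3 for 9 of 82 members by edgeR's test of it, beside 9.07% of all genes. The count called either way thus lies near the share over all genes. All 9 were higher in F3, beside 5.4% of all genes called higher. On the log2 scale, F3 minus F2, the difference was 2.13 for *grl-7*, 1.91 for *wrt-1*, 0.56 for *grl-4*, 0.57 for *ptr-14*, 1.43 for *mlt-9*, 1.45 for *qua-1*, 1.31 for *grl-16*, 0.95 for *mlt-10* and 7.15 for *grl-23* (edgeR adjusted p from 0.01 to 0.037). In each the value was lower in F2 exposed than in F2 control animals and higher in F3 exposed than in F3 controls. Only *wrt-1* and *qua-1* of them were called in F3 exposed against control animals. The value of *grl-23* comes from single libraries, at 7.85 CPM in 1 F2 control and 4.75 CPM in 1 F3 exposed library. Without F2 control replicate 2 only 1 of the 9 was called, and with the collagen covariate none was.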

How the results depend on the processing

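Of 70 pairs of a named member and a comparison none reversed, 662 values kept their call and 230 lost it. The collagen covariate alone ended 50 of the 70. The collagen level itself differed between groups, so this covariate was partly the same contrast as the comparisons. Counts of members called follow, main count first. With the collagen covariate, F1 exposed against control went from 1 to 0, F2 exposed from 9 to 0, F3 exposed from 3 to 1, F2 recovery from 14 to 0, F3 recovery from 1 to 0, F3 exposed against recovery from 2 to 0, F1 against F0 controls from 44 to 9, F3 against F2 controls from 46 to 1, and the F3 minus F2 difference from 9 to 0. DESeq2 gave 1 in F0 exposed against control, 2 in F1, 23 in F2 recovery and 2 in F3 recovery against control, 1 and 4 in F1 and F3 exposed against recovery, and 5 for F2 minus F1. No filter gave 5 in F2 and 1 in F3 exposed against control, 6 in F2 recovery against control, 1 in F3 exposed against recovery and 3 for F3 minus F2. A fit of only the libraries compared gave 4, 14 and 0 in F1, F2 and F3 exposed against control, 6 and 0 in F1 and F3 recovery against control, 5 and 0 in F1 and F3 exposed against recovery, 11 in F3 against F2 controls, and 1, 8 and 0 for the differences F1 minus F0, F2 minus F1 and F3 minus F2. Without both libraries with few detected genes F3 exposed gave 1, F3 recovery 0 and F3 exposed against recovery 0, with 43 for F3 against F2 controls and 9 for F3 minus F2. The replicate block gave 0 in F3 recovery against control, 9 in F2 exposed and 15 in F2 recovery against control, and changed no other count by over 1.5 times. Leaving out 1 library gave 0 to 0 in F0 and F1 exposed against control and in F1 and F2 exposed against recovery, 0 to 11 in F2 exposed, 1 to 3 in F3 exposed, 0 to 1, 1 to 26 and 0 to 6 in F1, F2 and F3 recovery against control, 0 to 7 in F3 exposed against recovery, 35 to 44, 9 to 15 and 34 to 50 between control generations, and 0 to 0, 0 to 10 and 1 to 17 for the differences between generations. Other size factors moved no count by over 1.5 times. The cause of these shifts was not tested; fewer libraries leave fewer degrees of freedom.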
